A study of Mus musculus with 6 samples.

Results

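The Ugt1a genes of the mouse were described here in bone marrow-derived macrophages (BMMs), which are macrophages grown from marrow cells with macrophage colony-stimulating factor (M-CSF). The 9 members are Ugt1a1, Ugt1a2, Ugt1a5, Ugt1a6a, Ugt1a6b, Ugt1a7c, Ugt1a8, Ugt1a9 and Ugt1a10, taken by symbol from 24394 gene symbols in the expression files. Of these, 8 had a line in every library, 2 were above 0 in any library and 6 were listed at 0 in all 6 libraries. Ugt1a8 had no line under its symbol and was not analysed here. The locus was selected on the FPKM of its members in the control and stimulated libraries of this same comparison, so every difference between the groups for a member is a description without a test.

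RNA-seq libraries came from 3 control BMM cultures and from 3 cultures stimulated with cartilage fragments at 5 fragments per macrophage for 24 h. All macrophages were from C57BL/6 mice at postnatal day 28 and were grown from isolated monocytes with 50 ng/ml M-CSF for 7 days, so the control cultures had received M-CSF too. The cartilage came from the same mice. The labels do not state whether the 3 libraries of a group came from separate animals, so a p-value measures only the spread between these libraries, which may be technical. Replicates of a group differed by more than counting noise, with a chi-square per gene of 1.53 to 1.71 on estimated fragments, and none was counted as a duplicate.

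UDP-glucuronosyltransferases are enzymes of the endoplasmic reticulum that join glucuronic acid to bilirubin, steroids and foreign phenols, which makes these molecules soluble enough for export. The Ugt1a genes form one cluster in which each member has its own promoter and its own first exon, spliced to a common set of later exons. The first exon encodes the part of the enzyme that binds the substrate, and the common exons encode the part that binds UDP-glucuronic acid. Liver and gut are the tissues known for high Ugt1a activity. Ugt1a1 is the bilirubin enzyme, and Ugt1a6 acts on small planar phenols and belongs to the genes that the aryl hydrocarbon receptor switches on.

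On chromosome 1 of GRCm38 (mm10), plus strand, the first coding exons of the members lie in the order Ugt1a10, Ugt1a9, Ugt1a8, Ugt1a7c, Ugt1a6b, Ugt1a6a, Ugt1a5, Ugt1a2 and Ugt1a1 in the GENCODE M21 annotation. The first coding exon of Ugt1a7c is at chr1:88095121-88095978 and that of Ugt1a6b at chr1:88106942-88107799, which places them 119 kb and 107 kb before the first common exon. The common exons 2, 3 and 4 are at chr1:88215044-88215175, chr1:88215795-88215882 and chr1:88216138-88216357. The coding part of the common exon 5 is at chr1:88218127-88218421. These exons give every member the same 735 coding bases after a first coding exon with 849 to 870 coding bases. Exons are numbered here from the first coding exon. The transcripts used for Ugt1a6b and Ugt1a6a have 6 exons, against 5 for the others, with a non-coding exon before the first coding one. The map shows a single coding transcript per member, and a further Ugt1a7c transcript that starts at the first exons of other members was left out. In this map, each member differs from the others in its first coding exon and in the length of the intron that follows it.

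**Figure D1:**
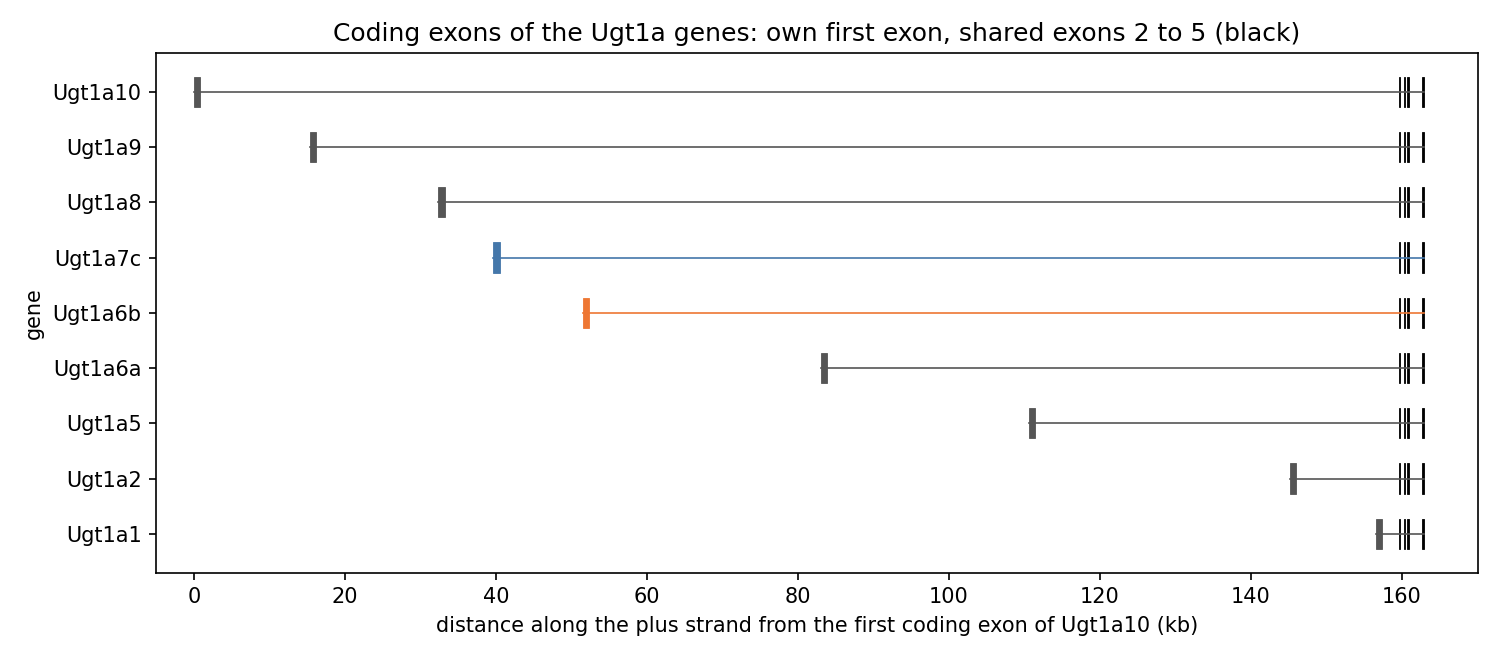
Coding exons of the 9 Ugt1a genes from GENCODE M21, with the distance in kb from the start of the first coding exon of Ugt1a10 on the horizontal axis and one gene per row. Coloured or grey boxes are the first coding exons, black boxes are the common exons 2 to 5, and thin lines are the introns. The rows differ in the first coding exon and the intron after it.

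The exon junction is printed for 4 members because it shows where the sequence becomes common to all members. Each line gives the last 40 bases of the first coding exon in lower case and the first 30 of the common exon 2 in capitals. The bases run 5′ to 3′ and come from the GENCODE M21 transcripts.
Ugt1a7c: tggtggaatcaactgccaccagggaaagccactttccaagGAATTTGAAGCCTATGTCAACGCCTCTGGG
Ugt1a6b: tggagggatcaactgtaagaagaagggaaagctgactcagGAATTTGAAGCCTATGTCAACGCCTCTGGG
Ugt1a6a: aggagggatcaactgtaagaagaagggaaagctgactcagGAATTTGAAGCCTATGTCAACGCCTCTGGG
Ugt1a1: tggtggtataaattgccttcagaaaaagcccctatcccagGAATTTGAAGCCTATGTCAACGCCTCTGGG
The capitals are the same in all 9 members. The lower-case bases belong to the first coding exon of each member. The bases printed for Ugt1a6b below are the same in Ugt1a6a, so they do not tell that pair apart. The start of the coding sequence is printed for the members above 0, with the start codon in capitals, because these bases tell Ugt1a7c from Ugt1a6b.
Ugt1a7c: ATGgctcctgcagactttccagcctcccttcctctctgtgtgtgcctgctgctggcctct
Ugt1a6b: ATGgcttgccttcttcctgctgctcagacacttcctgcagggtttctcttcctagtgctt

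Over the whole coding part of the first coding exon, Ugt1a7c and Ugt1a6b were 58.9% identical in an alignment of 958 columns. Ugt1a6a and Ugt1a6b were 97.0% identical and differed at 26 of 858 positions, so the value of either member is uncertain where a read lies in a stretch they share. Over the 36 pairs of members, identity of this coding part was between 58.0% and 97.0%. In the files, the Ugt1a7c line (NM_201642, chr1:88095001-88220002) had a length of 3294 bases, of which 2316 bases (70.31%) lay in the common exons. The Ugt1a6b line (NM_201410, chr1:88103257-88218998) had 2293 bases, of which 1312 bases (57.22%) were common. It ended 1004 bases before all the other lines of the cluster. The part outside the common exons was 978 bases for Ugt1a7c and 981 bases for Ugt1a6b.

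Ugt1a7c was the member above 0 in every library, Ugt1a6b appeared only in the stimulated libraries, and the sum of the cluster was nearly the same in both groups. Values are FPKM, the fragments scaled to transcript length and library depth, as Cufflinks estimated them in each library. Ugt1a7c was listed at 122, 137 and 145 FPKM in the control libraries and at 92.7, 103 and 98.7 FPKM in the stimulated libraries. All 3 stimulated values lay below all 3 control values. Its mean level was 135 ± 11.5 FPKM in the controls and 98.2 ± 5.30 FPKM after stimulation (SD, n = 3 each), a difference of -0.45 ± 0.08 (SE) on the log2(FPKM + 0.1) scale.

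Ugt1a6b was listed at 0 in each of the 3 control libraries. In the stimulated libraries it was listed at 52.5, 26.9 and 28.4 FPKM. Stimulated replicate 1 stood highest, and no stimulated library came near 0. The upper bounds that Cufflinks listed for the zeros were 1.25, 1.28 and 1.30 FPKM, and the lowest of the lower bounds after stimulation was 15.4 FPKM. No fold change is given, because the control values are all 0 and the fitted difference is set by the constant added before the logarithm. Cufflinks attached the status LOWDATA to the Ugt1a6b line in 5 of 6 libraries, whereas every Ugt1a7c value carried the status OK. In control replicate 1 the Ugt1a6b line was OK, but so was every line of that library, against 770 to 795 lines with another status in each of the other libraries.

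**Figure D2:**
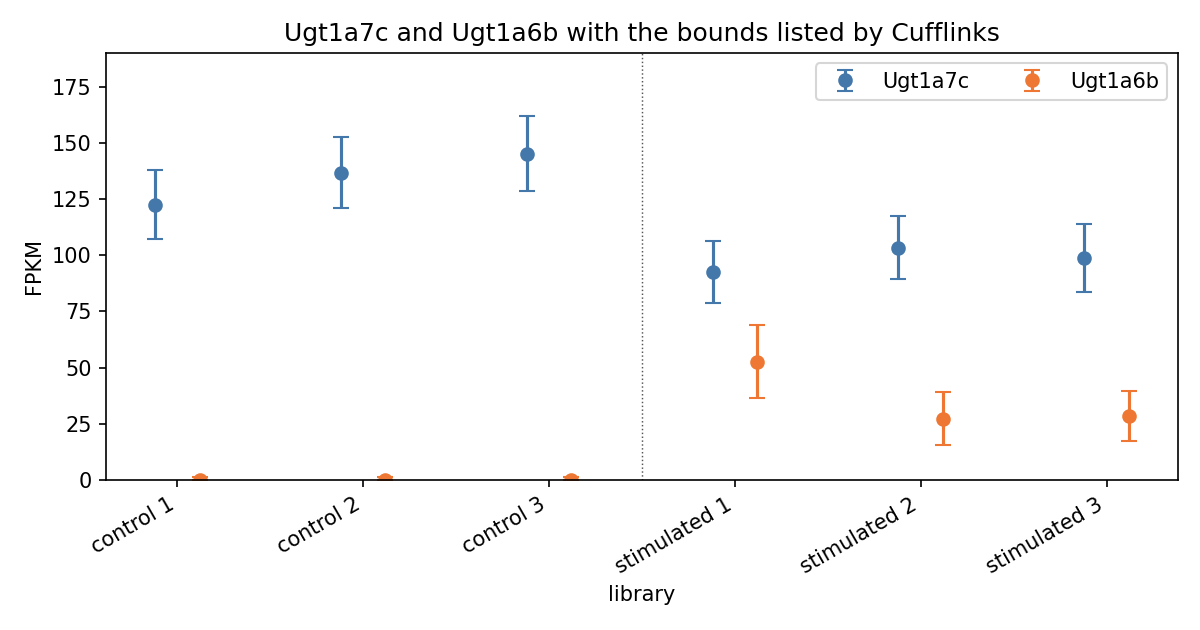
FPKM of Ugt1a7c (blue) and Ugt1a6b (orange) in each library, with bars for the lower and upper bound that Cufflinks listed. The Ugt1a7c points of the stimulated libraries sit below those of the controls, and the Ugt1a6b points leave 0 only in the stimulated libraries, at 26.9 to 52.5 FPKM.

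Summed over the members, the locus stood at 122, 137 and 145 FPKM in the controls and at 145, 130.1 and 127 FPKM after stimulation. The ranges of the groups overlapped almost wholly. The means were 134.8 ± 11.5 and 134.2 ± 9.66 FPKM (SD, n = 3 each), and their difference was -0.01 ± 0.09 (SE) on the log2 scale, with a 95% interval of -0.26 to 0.25. The locus ranked between 486 and 564 among all symbols by level in the 6 libraries. Changes of the locus inside that interval were not resolved with 3 libraries per group.

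The share of Ugt1a6b in the locus sum was 0% in every control library and 36.2%, 20.7% and 22.4% in the stimulated libraries, or 26.4 ± 8.50% (SD, n = 3). Ugt1a7c made up the rest, with 63.8%, 79.3% and 77.6% after stimulation. The 2 members above 0 were also the 2 of 9 members whose groups did not overlap, 1 in each direction. Over all 10393 tested symbols, 15.9% did not overlap between the groups, with 9.04% higher and 6.89% lower after stimulation. Nothing about the members is read from that count, since this contrast chose the locus.

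In fragments, the share of Ugt1a6b was smaller than in FPKM. A fragment number for each line was estimated from the coverage, the mean read depth that Cufflinks lists beside each FPKM. Ugt1a7c held 294, 319 and 332 fragments in the controls and 215, 230.2 and 213 after stimulation. Ugt1a6b held 82.2, 40.5 and 41.3 fragments in the stimulated libraries, which was 27.7%, 15.0% and 16.3% of the fragments of the locus. These shares are lower than the shares of FPKM because the Ugt1a6b line is shorter, so that 3 fragments count as 1.85 to 2.06 FPKM on it and as 1.25 to 1.39 FPKM on the Ugt1a7c line.

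The whole locus held 294, 319 and 332 fragments in the controls and 297, 271 and 254 fragments after stimulation. Scaled to the depth of the library, the means were 308 ± 25.9 and 279.9 ± 11.6 fragments (SD, n = 3 each), a difference of -0.14 ± 0.08 (SE) on the log2 scale, with a 95% interval of -0.36 to 0.08. The groups still overlapped on this scale. The locus took between 0.0363% and 0.0447% of the fragments of a library.

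**Figure D3:**
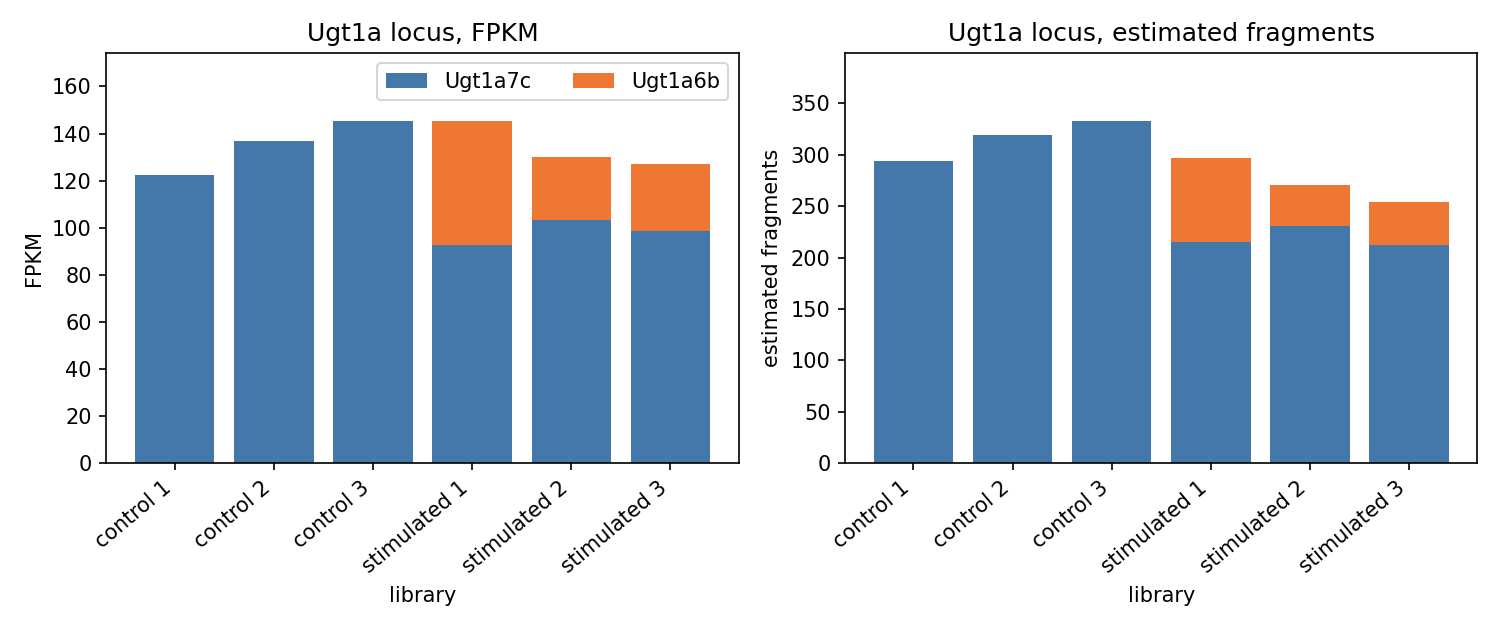
FPKM (left) and estimated fragments (right) of the Ugt1a locus in each library, stacked from Ugt1a7c (blue) and Ugt1a6b (orange). The orange part is present only in the stimulated libraries, where the blue part is lower, and the height of the stack overlaps between the groups.

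The other members were at the floor. Ugt1a1, Ugt1a2, Ugt1a5, Ugt1a6a, Ugt1a9 and Ugt1a10 were listed at 0 FPKM with a coverage of 0 in all 6 libraries. Their upper bounds from Cufflinks were between 0.840 and 0.963 FPKM. The bilirubin enzyme Ugt1a1 and the near copy Ugt1a6a were among them, so of the pair of phenol enzymes Ugt1a6a and Ugt1a6b only the latter was above 0. With 7 of 9 members without a value above 0, only Ugt1a7c and Ugt1a6b passed the filter of a mean of 1 FPKM, and Ugt1a6b passed it through the stimulated libraries alone.

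All 8 members with a line carried 1 common Cufflinks gene in each library, and 0 transcripts assembled by the authors' software lay in the locus. The files give 1 value per transcript and no value per exon, so reads on the first exon of Ugt1a6b or on its junction were not analysed here. How the fragments of the common exons were divided between Ugt1a7c and Ugt1a6b was not tested. In bulk RNA, fewer cells that express a gene and less RNA per cell cannot be told apart.

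How often a value went from 0 in this way was described at the level of transcripts. Of 12733 reference transcripts whose mean reached 1 FPKM, 10 (0.0785%) were listed at 0 in all control libraries and at 10 FPKM or more in all stimulated libraries, and 5 (0.0393%) showed the reverse. That count was defined after the values of Ugt1a6b were seen, so its place there was fixed in advance. Nothing about Ugt1a6b is read from it. The Ugt1a6b transcript was 1 of the 10. The others belonged to Aldoa, a glycolytic enzyme, the sorting nexin Snx10, the B-cell and myeloid receptor Cd72, the coat protein Sec31a of vesicle transport, Agpat3, Pmvk, Map7d1, Carkd and a symbol listed as 2-Sep. For these 9 symbols the sum over all transcripts of the symbol differed by -0.04 to 0.29 on the log2 scale. The transcript of Aldoa, for example, went from 0 to a mean of 373 FPKM, while the symbol stood at 1273 FPKM in the controls and 1477 FPKM after stimulation. In those 9, other transcripts of the same symbol, assembled ones included, held the level in the controls. In Ugt1a6b the other transcripts of the cluster carry other symbols, and its symbol sum went from 0 to a mean of 36.0 FPKM while the sum of the Ugt1a symbols differed by -0.01 on the log2 scale.

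**Figure D4:**
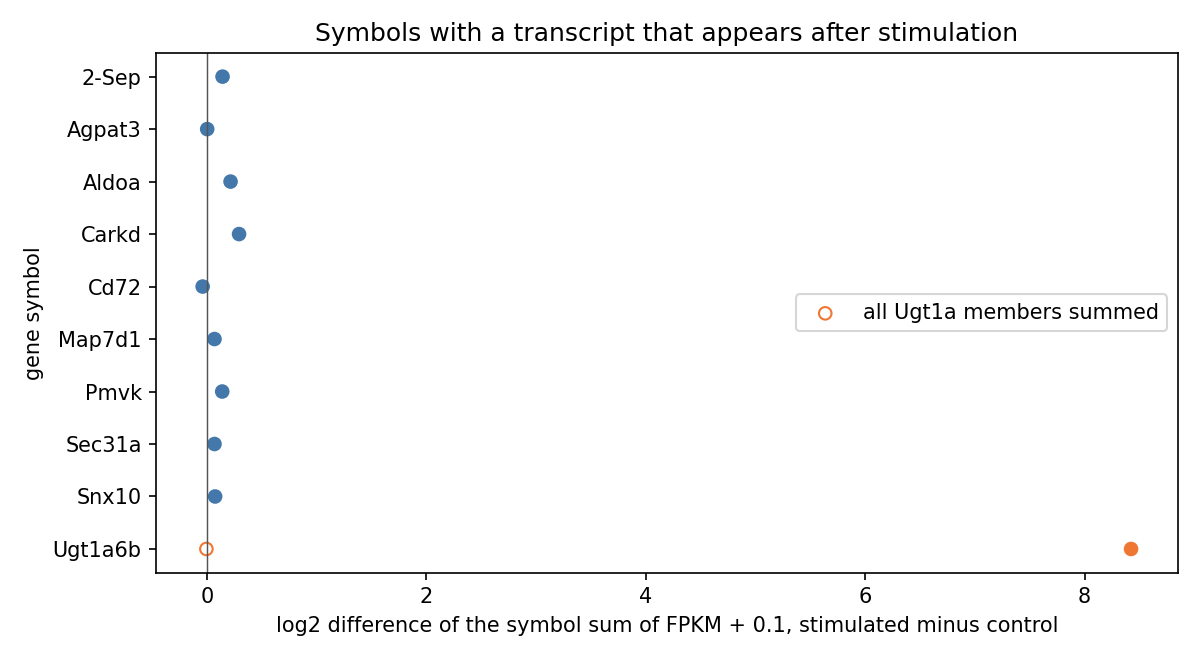
Difference of the symbol sum between stimulated and control libraries, on the log2(FPKM + 0.1) scale, for the 10 symbols with a transcript listed at 0 in all controls and at 10 FPKM or more in all stimulated libraries. The 9 blue points lie between -0.04 and 0.29, and the Ugt1a6b symbol (filled orange) lies at 8.42, a value set by the added constant, with the sum of all Ugt1a members (open orange) at -0.01.

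The same was described for symbols that share a Cufflinks gene. Between 542 and 557 Cufflinks genes per library held more than 1 symbol. Of the tested symbols, 294 of 10393 (2.83%) shared a Cufflinks gene with another symbol in every library, and the non-members Cd74, Gm5424 and Slpi were such symbols past the threshold of limma. In all, 38 symbols passed it, or 0.366% of those tested, with 32 higher (0.308%) and 6 lower (0.0577%). The members were not left out of that count. With the members summed to 1 gene it was 36 (30 higher, 6 lower). For Cd74, Gm5424 and Slpi, the sum over their Cufflinks gene gave the same log2 differences as the symbol alone, at -0.92, 1.78 and 2.08. The joined symbols thus did not alter these differences. The lack of overlap in these sums was therefore no separate check, and no comparison for Ugt1a6b. For Ugt1a6b, which is described without a test and was joined to 7 other symbols, the groups of the sum overlapped.

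The enzymes and transporters that work with the Ugt1a proteins were described next. The lists held 88 genes other than the members. Of these, 51 were tested, 29 were listed at 0 in all libraries and 0 passed the adjusted threshold of 0.05 with limma. At an unadjusted p under 0.05 there were 5 of the 51 genes (9.80%), against 9.19% of all tested genes. With depth-scaled fragments limma called 3 of the 51, against 259 of all 10393 tested genes (2.49%). The groups did not overlap for 7 of the 51, against 1656 of the 10393 (15.9%). These 7 were Gsta3, Gstm1, Abcc5, Abcg2, Blvrb, Cyp1b1 and Txnrd1. The median log2 difference of the 51 genes was -0.04, against 0.00 over all tested genes.

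UDP-glucuronic acid, the sugar donor of the Ugt1a enzymes, is made from UDP-glucose. Ugp2, which makes UDP-glucose, was at 55.4 ± 6.14 FPKM in the controls and 53.0 ± 2.47 FPKM after stimulation (SD, n = 3 each; log2 difference -0.06, adjusted p = 0.919 in limma). Ugdh, which oxidises UDP-glucose to the donor, was at 46.8 ± 7.35 and 41.3 ± 6.79 FPKM (log2 difference -0.18, adjusted p = 0.798 in limma). The level of both lay below that of the locus sum in every library. Gusb, the lysosomal enzyme that removes glucuronic acid again, was the highest of the 7 genes of this list, at 255 ± 12.8 and 238 ± 14.3 FPKM (log2 difference -0.10, adjusted p = 0.756 in limma). None of the 7 genes passed the threshold. All 13 genes of the other Ugt families (Ugt2, Ugt3 and Ugt8) were listed at 0 in all 6 libraries, so Ugt1a7c and Ugt1a6b were the Ugt genes of these lists above 0.

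Among 15 tested enzymes of other conjugation reactions, Gsta3 came nearest to the threshold. This glutathione transferase was at 39.99, 50.4 and 46.2 FPKM in the controls and at 69.0, 71.6 and 69.2 FPKM after stimulation. The groups did not overlap, with a log2 difference of 0.62 ± 0.13 (SE) and an adjusted p of 0.123 in limma, against 0.0463 with depth-scaled fragments and a range of 0.0463 to 0.945 over the other processing settings. With reference transcripts alone its difference was -0.21, the opposite direction. Mgst1 and Gstm1, the highest of the list with means of 384 and 342 FPKM in the controls, had adjusted p of 0.829 and 0.655 in limma.

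The 6 tested export pumps, which carry glucuronides and other conjugates out of the cell, had no call either. Abcc1 was at 64.3 ± 4.10 and 67.9 ± 5.61 FPKM, and Abcc3, a pump for glucuronides, at 39.7 ± 2.00 and 39.96 ± 3.54 FPKM (SD, n = 3 each). Abcc5 was at 17.7 ± 0.688 and 21.3 ± 0.466 FPKM without overlap (log2 difference 0.26, adjusted p = 0.650 in limma). Abcg2 was at 6.22 ± 0.791 and 3.46 ± 1.41 FPKM, also without overlap (log2 difference -0.92, adjusted p = 0.524 in limma). The log2 difference of Abcg2 was -0.53 without stimulated replicate 2. In the path from heme to bilirubin, the substrate of Ugt1a1, Blvrb was at 519.7 ± 14.2 and 631 ± 31.8 FPKM without overlap (log2 difference 0.28, adjusted p = 0.126 in limma). Hmox1, which opens the heme ring, was at 551 ± 30.2 and 584 ± 11.7 FPKM (log2 difference 0.09, adjusted p = 0.715 in limma). Blvra had a log2 difference of -0.0012 (adjusted p = 0.998 in limma), and Hmox2 one of -0.37 (adjusted p = 0.695 in limma). Blvrb was thus the only 1 of the 4 genes of this list without overlap, and none passed the threshold.

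Factors known to switch on Ugt1a genes were described by their own targets. In the list of the aryl hydrocarbon receptor and its gene battery, which includes Ugt1a6 as background knowledge, 6 of 10 genes were tested and 5 of them had a negative difference. Ahrr, the repressor that the receptor itself switches on, had the positive one, with 5.10 and 7.53 FPKM in the group means (log2 difference 0.55, adjusted p = 0.615 in limma). Cyp1b1, a target of that receptor, was at 7.66, 5.70 and 6.07 FPKM in the controls and at 2.18, 3.69 and 3.23 FPKM after stimulation, without overlap (log2 difference -1.09, adjusted p = 0.281 in limma, 0.0372 with depth-scaled fragments and 0.0372 to 0.573 over the other processing settings). Nqo1, shared between that battery and the Nrf2 targets, was at 12.1 ± 5.16 and 10.7 ± 1.82 FPKM (SD, n = 3 each). All 12 genes of the Nrf2 list were tested, 6 with a positive and 6 with a negative difference, and their median was 0.02 on the log2 scale. Gclm, a subunit of the enzyme that starts glutathione synthesis, was at 232 ± 20.6 and 216 ± 11.5 FPKM, and Srxn1 at 175 ± 4.08 and 185 ± 16.4 FPKM (SD, n = 3 each). Txnrd1, which keeps thioredoxin reduced, was at 226 ± 2.81 and 263 ± 8.16 FPKM (log2 difference 0.22, adjusted p = 0.329 in limma, 0.0248 with depth-scaled fragments and 0.0248 to 0.739 over the other processing settings). Of the 9 nuclear receptors, 5 were listed at 0 in all libraries and 3 were tested, with adjusted p of 0.702 or more. Abcg2 and Cyp1b1 were named after their values were seen.

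**Figure D5:**
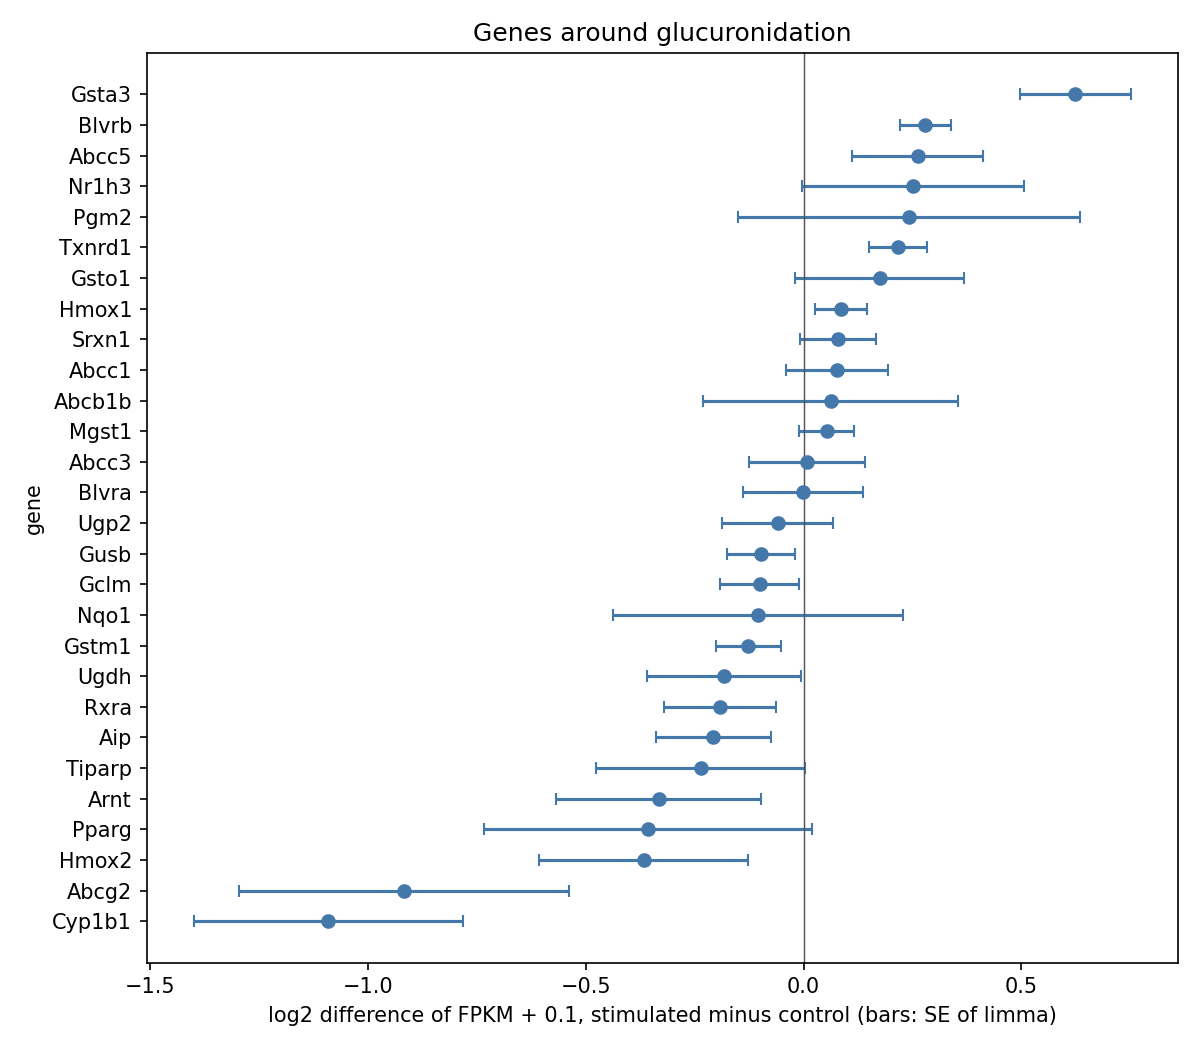
Log2 differences (stimulated minus control, log2(FPKM + 0.1)) of 28 genes around glucuronidation, with bars for the SE from limma. The points run from -1.09 (Cyp1b1) to 0.62 (Gsta3), and none passed the adjusted threshold.

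Within 300 kb of the locus the files held 13 other symbols, and none of those tested was called. The nearest gene above 0 in any library was Hjurp, 38.9 kb away, at 0 to 1.89 FPKM and below the filter. The tested transcripts 6430706D22Rik and A730008H23Rik followed at 43.1 kb and 44.8 kb, overlap Hjurp or each other, and are uncertain for that reason. The first was at 4.58 ± 2.65 and 3.24 ± 1.86 FPKM (SD, n = 3 each), and the second was listed at 0 in 1 library of each group. Beyond them lay Usp40, at 5.95 ± 1.16 and 7.00 ± 0.189 FPKM and 46.9 kb away (SD, n = 3 each). Dnajb3, which lies inside the span of the locus, was listed at 0 in all 6 libraries. The level of the locus sum over the 6 libraries was followed most closely by Prpf38a (Pearson r = 0.976), Rgs2 (0.972), Psmg4 (0.968), Cep70 (0.965) and Ndufc1 (0.963), among 10393 symbols from which the highest values were picked. These r are a description over 6 libraries that share the scaling of FPKM.

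Library depth, estimated from coverage, was between 699192 and 776322 fragments. This is far below the number of reads that the methods give per sample, and the gap was not explained by the files, so fragment numbers here are those that the listed coverage implies. The 8 macrophage markers, such as Csf1r and Adgre1, were present, with summed levels of 29520 to 39241 FPKM in the controls and 30119 to 40366 FPKM after stimulation. Markers of hepatocytes or gut epithelium, the tissues of high Ugt1a, were at 0 for all 7 genes, as were 3 lymphocyte and 4 red cell markers. Of 16 chondrocyte markers 14 had a line, 8 of these were at 0, and their sum was 2.40 to 5.21 FPKM in the controls and 1.44 to 3.35 FPKM after stimulation. Fibroblast or bone markers summed to 160.2 to 173 FPKM in the controls and 107 to 121 FPKM after stimulation, so they moved in the same direction as Ugt1a7c, and their part in that result was not tested. Neutrophil and progenitor markers summed to 808 to 948 and 755 to 1098 FPKM.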

How the data were processed

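The 6 libraries were made with a stranded mRNA kit and read as paired ends of 100 bases. The authors aligned reads to mm10 with TopHat and Bowtie and deposited Cufflinks FPKM per transcript with lower and upper bounds. Versions were not given in the sources used here, and whether the TMM scaling named in the methods was applied could not be told from the values. The deposited coverage is the mean read depth of a transcript, and its length is in bases. Cufflinks divides fragments of shared exons between transcripts by likelihood, so a member's FPKM depends on that division.

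FPKM were summed over the lines of a symbol. Unnamed assembled lines were added to the symbol of their Cufflinks gene where it held 1 symbol. Fragments were estimated as coverage times the length, less 205 to 218 bases depending on the library, divided by the read length of 100. The subtracted length was the one that made the most low values whole, among symbols with 1 line. With it, 93.3% to 94.5% of those values (up to 8) were whole within 0.1. That share was thus fitted and is no separate check of the fragment numbers. Counting error limits the precision of lines with few fragments. Depth-scaled fragments are these divided by the library's total and brought to the mean depth.

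Symbols whose mean reached 1 FPKM entered a two-sided limma comparison (version 3.58.1, R 4.3.3, with a variance trend and robust moderation) on log2(FPKM + 0.1), and p-values were adjusted over the 10393 symbols after Benjamini and Hochberg, at 0.05. With 3 libraries against 3, an exact permutation test of a single value cannot go below p = 0.1, and none is given. Structure and sequences came from GENCODE M21 on GRCm38, the build of the files, with Python 3.11.15, pandas 2.3.3 and Biopython 1.88.

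The members and lists were chosen with earlier results of these data known. Named genes are the members, up to 4 genes of each list by highest mean FPKM, genes within 300 kb, and the 5 genes most like the locus sum. Alternatives changed the pseudocount (1 or 0.01; 0.5 for scaled fragments), the filter (none or 5 FPKM), the scaling, the lines used and the replicate block, or left out each library. Summing the members to 1 gene, the transcripts that appear and the joined symbols were chosen after seeing the data.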

Additional observations from a re-analysis of the deposited data

How the results depend on the processing

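The log2 difference of Ugt1a7c was -0.52 to -0.40 without each library in turn. Its sign and the absence of overlap for 2 members are fixed by groups that do not overlap and say nothing of stability. The log2 difference of Ugt1a6b was 5.14 with a pseudocount of 1, 11.74 with 0.01 and 6.74 with scaled fragments, as its construction from zeros implies, and 8.12 to 8.60 without 1 library. Its share of the locus was 19.6% of scaled fragments and 21.5% to 29.3% without 1 library. The locus sum differed by -0.14 with scaled fragments and by -0.07 to 0.05 without 1 library, so its sign was not fixed by these data.

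The count of called symbols was 259 (172 higher, 87 lower) with scaled fragments, 19 (15 higher, 4 lower) with reference transcripts only and 36 (30 higher, 6 lower) with the members summed to 1 gene. Without 1 library it was 9 to 30, with 9 to 27 higher and 0 to 6 lower, with 22 calls without control replicate 1, 9 without stimulated replicate 1 and 19 without stimulated replicate 2, and with 3 lower calls without each control library in turn. The replicate block gave 18 calls (17 higher, 1 lower). The labels do not state that the replicate numbers pair the samples. Deviations of libraries with the same number correlated at -0.02, -0.00 and 0.01, and control replicate 1 correlated best with stimulated replicate 3. These values showed no pairing, but with 3 libraries per group they cannot exclude one. The 0 calls of the lists became 3 with scaled fragments and stayed 0 under the other 14 alternatives. Differences turned for Gsta3 (-0.21), Abcc5 (-0.22) and Ugdh (0.074) with reference transcripts only and for Ugp2 without control replicate 1, where leaving out 1 library gave -0.10 to 0.030. Small differences also changed in size without 1 library, to between -0.30 and -0.06 for Ugdh and between 0.04 and 0.12 for Hmox1. Where no construction explains a change, the cause was not tested. The depth of 699192 to 776322 fragments limits the precision of genes with few fragments.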

Other observations

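The 5 transcripts that were listed at 0 in all stimulated libraries and at 10 FPKM or more in all control libraries belonged to Anapc5, a subunit of the anaphase-promoting complex, and to Asap1, Carkd, Dcaf11 and Nkiras2, an inhibitor of NF-κB signalling. The Carkd symbol held both a transcript of this kind, at a mean of 15.0 FPKM in the controls, and one that appeared after stimulation, at a mean of 24.6 FPKM, while its sum over transcripts was 19.9 and 24.6 FPKM. Ugt1a7c was not among these transcripts, since it was above 0 in all 6 libraries.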
